A study of Sus scrofa with 44 samples.

Results

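The set described here was 342 m6A peaks of 312 genes that were listed in pig fetal back muscle at 95 days post coitus (E95) and whose genes had no peak in the lists of 5 earlier stages. Members were chosen by gene name: a gene with a row in the E95 peak list and no row in any list from E33 to E70. They were 342 of the 8109 E95 peaks and 312 of the 4598 genes with an E95 peak, and 276 of the 312 genes carried a symbol. The presence of a peak chose the members, so the presence of a peak at E95 is not a finding.

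N6-methyladenosine (m6A) is a methyl mark on adenosines of messenger RNA, written by a nuclear complex around METTL3 and METTL14 and read by proteins that act on the stability, splicing and translation of the transcript. The mark sits in a short sequence context called DRACH (A, G or T, then A or G, then A, C, and A, C or T) and is known to be dense around stop codons and in 3′ UTRs. MeRIP-seq finds it by sequencing RNA fragments pulled down with an antibody against m6A and comparing them with the input RNA, so a peak needs both a methylated site and enough transcript. Late fetal muscle holds fibres that are already formed and are gaining contractile, calcium-handling and metabolic proteins.

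The muscle samples were longissimus dorsi of pig, with 3 input and 3 immunoprecipitated samples of rRNA-depleted RNA at each of 33, 40, 50, 60, 70 and 95 days post coitus (36 samples). The remaining 8 samples were of the PK15 line of kidney cells, labelled adult, and were prepared either by polyA selection or by rRNA depletion. No breed, sex, litter or pooling of animals was given, no treatment was named, and nothing said that samples of a stage came from separate animals. P-values therefore measure the spread between these samples, which may be technical.

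Expression was read from TPM of the 18 muscle input libraries, and all libraries had the same total, so depth was unknown. A single gene without a symbol took 37.4% to 72.4% of the TPM of a library. Values are therefore given as scaled TPM, which is deposited TPM divided by a size factor per library (the median ratio to the average library). A gene was called higher or lower at a limma adjusted p under 0.05 over the 13334 genes whose TPM averaged 1 or more. E40 replicate 2 and E50 replicate 3 had the lowest size factors, 0.472 and 0.305, and leaving both out turned no call of a named gene against the earlier stages except that of INIP, given further on. Peaks came as 1 list per stage, so peak values have no replicates. The summed scaled TPM of 8 skeletal muscle markers rose from a mean of 1080 ± 81.1 at E33 to 18154 ± 4862 at E95 (SD, n = 3 each). Of that sum, ACTA1 and TNNI2 had E95 means of 6259 and 6836. Against the earlier stages 6 of the 8 markers were called higher. PAX7 was called lower (log2 change -0.44, limma adjusted p = 0.0020) and MYOG was not called (-0.038). Against E70, 2 were called higher and 1 lower.

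The sites of 12 members are shown first, because they carry the methylation context in the genes the results turn on: genes that rose at E95, genes with very high fold enrichment, and a gene that fell. Each is 25 bases of the Sscrofa11.1 genome (RefSeq), 5′ to 3′ on the strand of the gene. It holds, in capitals, the DRACH match nearest the middle of the gene's E95 peak of highest fold.
TMOD4: gagatcctaaGGACCttgagccctg
KLHL33: ggctcagatcAGACAtggccatgag
NR4A3: ccccacacacAGACAagctcacacc
FOS: accccgaggcTGACTccttccccag
KLF9: agggagggacTGACCgggaaggaca
HADHA: ttaacaacaaAGACCcagctcttta
CPT1A: ctgccgtgaaGGACAacgaggtctt
PPP1R27: ggactaagatGGACTgagcccagcc
SLC16A8: ctgagcccggGGACTgcgccctcgg
TMEM170B: ggtttctgtgGGACTgtcttacttc
TICAM1: ctgacgtcacAGACCagaagccgcc
CDC27: gagagcagcaTGACAgatgcagatg

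Among these, the sites of PPP1R27 (chr12:1137252-1137276, plus strand), SLC16A8 (chr5:9806250-9806274, plus strand) and TMEM170B (chr7:8124558-8124582, plus strand) hold GGACT, the best known form of the context, and all belong to peaks whose midpoint is near a stop codon. Places here and below are those of the peak's midpoint. The peaks that hold the sites of CPT1A (chr2:4291852-4291876), FOS (chr7:98451862-98451886) and CDC27 (chr12:16879274-16879298), all on the plus strand, also lie within 200 bases of the stop codon. The peaks around the sites of TMOD4 (chr4:98075658-98075682), KLHL33 (chr7:78476556-78476580) and TICAM1 (chr2:74019636-74019660) lie in coding sequence on the plus strand. The peak of NR4A3 (site at chr1:241569976-241570000, plus strand) lies in the 5′ UTR and that of HADHA (site at chr3:112797597-112797621, plus strand) in the 3′ UTR. The peak of KLF9 (site at chr1:223723568-223723592, minus strand) lies outside the genes of the RefSeq annotation. Of the 28 named members on assembled chromosomes, 21 had such a match with 10 bases on either side inside 1 exon block. The other 7 (PICK1, PITPNC1, HSD17B1, CASQ1, CD63, NHSL3 and CEBPB) had no match of that kind.

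In the member peaks that were scored, the sequence in the middle was as rich in DRACH as that of the other E95 peaks. Peaks too short for the window of 80 exonic bases were left out, so 254 of the 342 member peaks were scored. Of these, 85.8% held at least 1 match on the transcript strand. The share was 86.7% in 7060 of the 7767 other E95 peaks. It was 75.4% in 12595 windows of the same length outside peaks in the members' own transcripts. The number of matches per window, overlapping matches counted, was 1.92 in members, 1.91 in other E95 peaks and 1.41 outside peaks. The reverse complement of the motif averaged 0.937 per member window, 0.834 in other E95 peaks and 1.36 outside peaks. GGACT, which is one of the DRACH words, was in 18.5% of member windows, 14.7% of other peaks and 6.61% of windows outside peaks, while its reverse complement AGTCC was in 6.69%, 6.57% and 5.60%. A match is a string of letters in the window and not a measured methylated base. Peaks are richer in G and C than their surroundings (54.6% in member windows, 49.0% outside).

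The peaks were short, mostly single and weakly supported beside the E95 list as a whole. The median member peak covered 91 exonic bases, against 209 for the other E95 peaks, and 85.1% were 1 uninterrupted block, against 74.1%. A single peak was listed for 287 of the 312 genes (92.0%), against 58.1% of the other genes with an E95 peak. Another 20 genes had 2 peaks, and 5 had 3: KLHL33, STON2, NR4A3, AATK and HSD17B1. The authors' peak caller gave member peaks a median p-value of 1.1e-06, against 7.9e-15 for the others. A p-value above 1e-06 was listed for 50.9% of member peaks and 13.3% of the others. The 180 E95 peaks of the 150 genes with peaks at E70 and E95 only shared much of this: a median of 121 exonic bases, 87.8% of 1 block, 84% of genes with 1 peak, and 31.7% of peaks with a p-value above 1e-06.

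Fold enrichment, which is a ratio given for each peak by the authors' peak caller, ran from 1.55 to 22.9 in members with a median of 4.77, against a median of 4.41 and a maximum of 57.9 in the other E95 peaks. The spread was wider in members: folds of 10 or more were listed for 74 peaks (21.6%), against 7.57% of the others. This was not particular to members, since 36 of the 180 peaks of genes listed at E70 and E95 only had such folds. The high folds came with weak support, since their median p-value was 1.9e-05 in members and 2.1e-08 in the others. Ties occurred at high and low folds: 65 of the 342 member peaks, of any fold, shared exactly the same fold and p-value with at least 1 other member. No such count is given for the other E95 peaks, so ties are not shown to be particular to members. BCL7B, FANCF, RHBDD1, SEC22C and TBL2, for example, all had a fold of 16.5 and a p-value of 9.1e-06. Another 5, ATP6V1E2, KCNS3, PLBD2, PLXNB1 and SDS, all had 13.2 and 0.00012. Both examples were chosen after their values were seen. Within them, the peaks of TBL2 and BCL7B share a stretch of the genome, as do those of SDS and PLBD2. Across peaks, fold fell with the gene's E95 level (Spearman rho of -0.46 over the 342 member peaks, -0.32 over the other E95 peaks and -0.49 over the peaks of genes listed at E70 and E95 only). This is a description across peaks, and both quantities may rest on the same input reads.

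**Figure D1:**
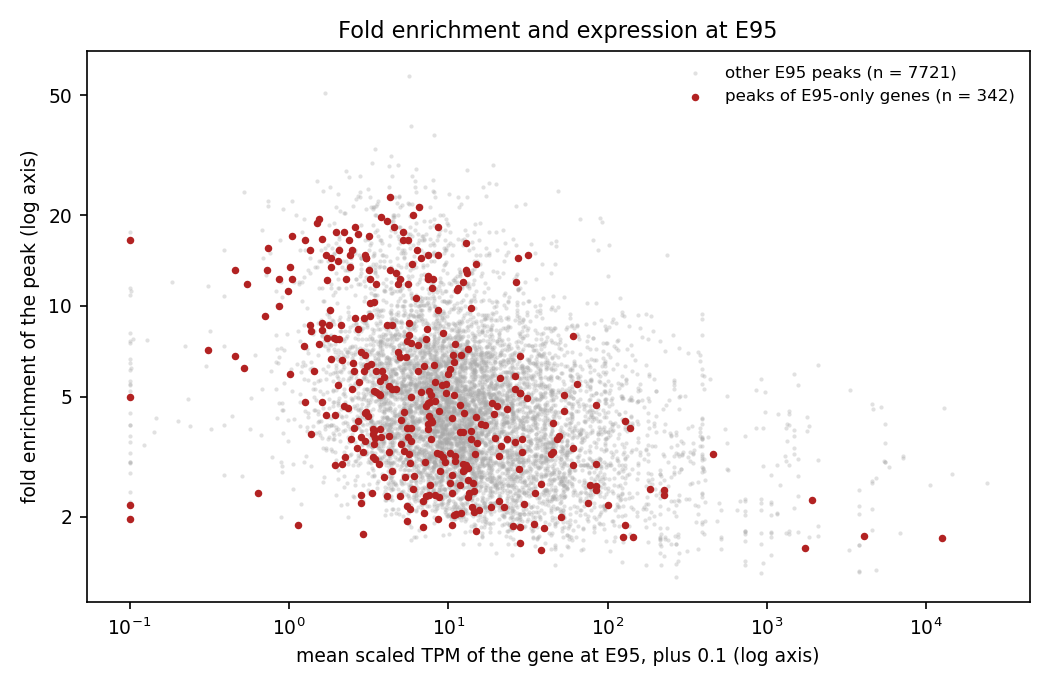
Each point is an E95 peak, with the mean scaled TPM of its gene at E95 on the x axis (plus 0.1, log axis) and its fold enrichment on the y axis (log axis). Red points are the 342 peaks of E95-only genes and grey points are other E95 peaks whose gene has a TPM value. The members' folds of 10 or more (74 peaks) lie mostly at low scaled TPM, and those of the most abundant members are close to the bottom of the range.

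At the edges of the selection, the lowest folds among members with a symbol were 1.55 in TCEA3, 1.58 in GAPDH and 1.64 in TGFBI. Just outside it were genes with 1 peak in 1 other muscle list, 254 of them with a symbol. The highest E95 folds among these were 25.9 in ITPR2 (fold 6.06 at E60), 25.9 in LACC1 (5.86 at E70) and 24.7 in ADAM22 (4.50 at E70). They exceed the highest member fold.

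On the strand of the gene, member peaks did not sit where an earlier peak was listed under another name. There, 0 of the 342 overlapped an earlier peak by 1 base or more, whereas 93.5% of the other E95 peaks did. Within the E95 list itself, 30 member peaks (8.77%) shared bases with a peak of a different gene on either strand, against 7.08% of the others. The labels do not state whether the libraries kept strand, and without strand such peaks cannot be assigned to 1 gene. The members with the highest folds are such a pair. PICK1, a PDZ-domain scaffold protein (fold 22.9, p-value 4.7e-08, chr5:9806202-9806292, minus strand), and SLC16A8, a monocarboxylate transporter (fold 21.2, p-value 2e-07, chr5:9806203-9806321, plus strand), lay on opposite strands of the same stretch. Further such members were TMOD4 with VPS72, CASQ1 with PEA15, LOXL3 with HTRA2, TBL2 with BCL7B and QRSL1 with RTN4IP1.

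By the midpoint of the peak in RefSeq transcripts, members were placed nearer the end of the coding sequence than the other E95 peaks. Of the 337 member peaks on assembled chromosomes, 99 (29.4%, Wilson 95% interval 24.8 to 34.5) lay within 200 bases of the stop codon, against 19.8% of 7659 other peaks. In coding sequence farther from the stop codon lay 143 (42.4%, 37.3 to 47.8), against 60.7%. The 3′ UTR held 43 (12.8%, 9.61 to 16.7) against 766 of the 7659 others, and the 5′ UTR held 20 (5.93%, 3.87 to 8.99) against 3.51%. Another 28 (8.31%, 5.81 to 11.7) lay outside RefSeq genes, against 4.22%. Genes with peaks at E70 and E95 only had a like placement, with 27.8% (21.7 to 34.9) of 176 peaks near the stop codon and 43.8% (36.6 to 51.1) in coding sequence. The median distance from the stop codon was -261 bases in 305 members (negative values are upstream) and -713.5 bases in 7200 other peaks. The intervals cover counting error only, and no test was made because peaks are not replicates.

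**Figure D2:**
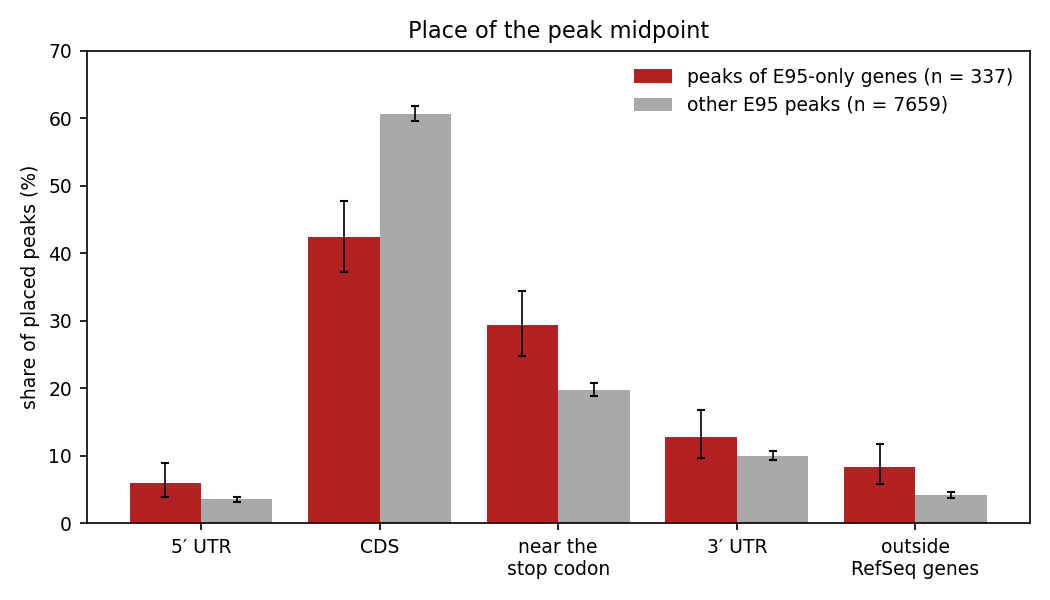
Bars are the share of placed peaks (in %) by place in the transcript, red for the 337 peaks of E95-only genes and grey for the 7659 other E95 peaks, with Wilson 95% intervals. The red bar is the taller near the stop codon (29.4% against 19.8%) and the shorter in coding sequence (42.4% against 60.7%).

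Transcripts of these genes were mostly present before E95. Of the 312 genes, 241 (77.2%) had a mean of at least 1 scaled TPM in all 6 stages, and 7 reached 1 at E95 after lying under 1 in all 5 earlier stages. Another 20 were under 1 at E95 itself. The median level over the 312 genes was 3.66 scaled TPM at E33, 3.81 at E40, 4.37 at E50 and 4.29 at E60. It then reached 4.83 at E70 and 5.80 at E95. At E33 the other genes with an E95 peak had a median of 9.43.

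Expression of members was shifted upward at E95. After the filter on low values, 287 of the 312 genes were tested. Against the mean of the 5 earlier stages, 150 of the 287 (52.3%) were called higher, beside a background of 21.1% of all genes tested, and 14 (4.88%) were called lower, beside 19.7%. The median log2 change was 0.38 in members and 0.00 over all genes. Among the 4201 other genes with an E95 peak that were tested, 1097 (26.1%) were called higher and 841 lower. In 95 of the 287 (33.1%), all 3 E95 libraries lay above all 15 earlier libraries, beside 8.86% of all genes. In 2, CDC27 and ZNF397, all 3 lay below, beside 7.46%. A peak is called more readily where a transcript has more reads, and the input libraries may also have been the caller's input. The levels are thus not independent of the rule, and these counts are a description of the members.

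On scaled TPM, the same picture held against each stage on its own. Against E33, 154 members were called higher (background 23.7%) and 14 lower (23%). Against E40, these counts were 139 (20.2%) and 17 (17.6%). Against E50, they were 127 (15.9%) and 10 (14.5%). Against E60, they were 114 (13.3%) and 6 (12.1%). Against E70, the nearest stage, 74 of 287 (25.8%) were called higher, beside a background of 6.84%, and 8 (2.79%) lower, beside 6.73%. These comparisons share the E95 libraries. The change between the last stages was modest for most members: 253 of 287 (88.2%) differed by less than 1 on the log2 scale, beside 93.5% of all genes.

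The calls depended on the scale of the TPM values. On TPM as deposited, the median log2 change of all genes against the earlier stages was -0.53. On that scale 31 members were called higher (background 1.79%) and 4 lower (11.5%), and against E70 these counts were 3 (0.075%) and 0 (0.21%). The members' median on that scale was -0.16, which is above that of all genes. Against E33 as deposited, more members were called lower (62, 21.6%) than higher (29, 10.1%). Among other genes with an E95 peak these shares were 49.2% and 2.88%. Against E40 as deposited, 29 members (10.1%) were called higher and 2 (0.697%) lower. Against E50 these counts were 27 (9.41%) and 0, and against E60 9 (3.14%) and 1 (0.348%). Among other genes with an E95 peak the shares were 2.17% and 2.64% (E40), 1.59% and 0.428% (E50), and 0.214% and 3.4% (E60). Shares over all genes were not counted on this scale for E33, E40, E50 or E60. After rescaling without the 2 most abundant genes, where the median of all genes was -0.44, the counts were 73 higher (7.16%) and 70 lower (50.2%), and against E70 42 (2.2%) and 18 (16.1%). On all 3 scales the members' share of higher calls exceeded that of all genes.

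**Figure D3:**
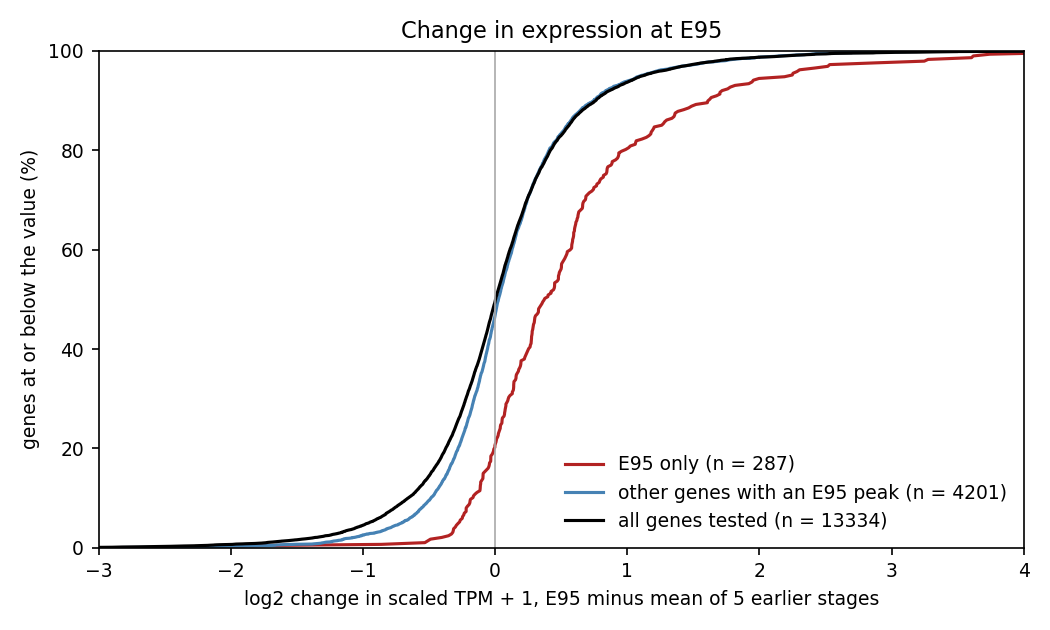
The curves show the share of genes (in %, y axis) at or below a given log2 change in scaled TPM + 1 between E95 and the mean of the 5 earlier stages (x axis, cut at -3 and 4) for the 287 E95-only genes tested (red), 4201 other genes with an E95 peak (blue) and all 13334 genes tested (black). The red curve lies to the right, with a median of 0.38, and the black curve crosses the middle at 0.00.

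Genes with peaks at E70 and E95 only had a like profile. Among 141 of them that were tested, 52.5% were called higher against the earlier stages and 3.55% lower. Among genes with peaks at E33 only, 4.85% of 371 were called higher and 39.4% lower, and among genes with peaks at E70 only 22.1% and 13.1% of 222. Between members and these groups the difference was not tested.

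These counts were set beside the p-value and fold of the gene's peak of highest fold, without a test of the difference. In 139 tested genes that peak had a p-value of 1e-06 or less, and 98 of them (70.5%) were called higher at E95. Where its p-value was above 1e-06, 52 of 148 (35.1%) were. Of members with a fold below the E95 list median of 4.42, 89 of 136 (65.4%) were called higher. Of those at or above it, 61 of 151 (40.4%) were. The median E95 level was 10.6 scaled TPM in the first class and 3.94 in the second. Peak p-values, folds and calls may rest on the same E95 reads. These splits are therefore a description and cannot show a link between a peak's p-value or fold and a rise.

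Genes of contraction and calcium handling were among the members that rose most. TMOD4, a tropomodulin that caps the thin filaments of skeletal muscle, was at 88.4, 116 and 95.1 scaled TPM in the 3 E95 libraries, at 16.9 to 19.5 at E70, and under 0.01 in 11 of 12 libraries from E33 to E60. Its log2 change against the earlier stages was 5.69 ± 0.23 (SE, limma adjusted p = 5.4e-10). Its neighbour SCNM1 was listed in mirror image, at means of 6.24 to 9.32 from E33 to E60 and at exactly 0 in all 6 libraries of E70 and E95. The program that gave the TPM was not named, and the part of a shift of reads between these adjoining genes in the values from E60 to E70 was not tested. From E70 to E95, with SCNM1 at 0 throughout, TMOD4 rose by 2.38 ± 0.30 (adjusted p = 0.00014). On TPM as deposited that difference was 1.83 (adjusted p = 0.050). CASQ1, the calcium-binding protein of the fast-fibre calcium store, was at 151, 212 and 188 scaled TPM at E95 and between 6.62 and 56.4 (median 14.7) in the 15 earlier libraries, without overlap. Its change was 3.28 ± 0.17 (adjusted p = 3.5e-09). The peaks of both were of low fold (2.19 and 2.48) with strong p-values (3.2e-33 and 7.9e-18).

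KLHL33, a kelch-family protein, carried 3 coding-sequence peaks with folds of 5.15, 5.16 and 6.81. It stood at 23.0, 19.5 and 41.7 scaled TPM at E95 and at 0 to 3.02 earlier, with a change of 4.30 ± 0.27 (adjusted p = 2.3e-08). DUSP26, a dual-specificity phosphatase, was at 72.7, 88.2 and 66.3 at E95 and at 0.351 to 38.2 earlier, a change of 3.62 ± 0.23 (adjusted p = 3.4e-08). The earlier values of DUSP26 were highest at E70, with a mean of 33.0. PPP1R27, a regulatory subunit of a protein phosphatase and the owner of a GGACT site shown above, was at 379, 599 and 392 at E95 and 21.2 to 244 earlier. Its change was 2.88 ± 0.14 (adjusted p = 1.7e-09). In these 3 genes the E95 libraries lay above every earlier library. KLHL33 and DUSP26 were named by a rule that required a call and such a lack of overlap, so neither is a finding for them. The same rule named CCL21, ZNF397 and CDC27 below. TMOD4, CASQ1 and NR4A3 met it too, but were also named from the gene lists.

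The gene lists are set beside all genes, of which 1.39% were members, 21.1% of those tested were called higher against the earlier stages and 19.7% lower. From the sarcomere list, TMOD4 was the 1 member among 36 matched genes, of which 28 had an E95 peak. In that list 27 of 36 were called higher against the earlier stages and 1 lower (median log2 change 1.03). With E70 alone as the reference, 7 were called higher and 2 lower (median 0.21), beside 6.84% and 6.73% of all genes. CASQ1 was the 1 member among 13 matched genes of excitation-contraction coupling. Of these, 12 of 12 tested were called higher against the earlier stages (median 1.41), and 7 against E70 (median 0.50). Over all 6 muscle lists, 32 of the 36 sarcomere genes and 11 of the 13 coupling genes had a peak.

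Immediate early genes, which respond within minutes to stimuli, gave FOS and NR4A3. NR4A3, an orphan nuclear receptor, carried 3 peaks with folds of 5.88, 5.31 and 3.55, the first and second in the 5′ UTR and the third in coding sequence. It was at 21.3, 26.8 and 30.5 scaled TPM at E95 and between 0.196 and 4.94 (median 0.894) earlier, a change of 3.60 ± 0.14 (adjusted p = 4.8e-10). FOS, a subunit of the AP-1 transcription factor, had peaks of fold 4.16 near the stop codon and 1.88 in coding sequence. Its level was 126, 142 and 118 at E95 and 7.13 to 88.9 (median 24.1) earlier, with the highest earlier value at E60. Its change was 2.30 ± 0.27 (adjusted p = 9.9e-06). Of the 21 matched genes of this list, 15 were called higher against the earlier stages and 1 lower, with a median of 1.05, beside 21.1% and 19.7% of all genes. The counts against E70 were 7 and 0 (median 0.60), beside 6.84% and 6.73%.

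Targets of glucocorticoid and FOXO signalling gave KLF9 and CEBPB. KLF9, a transcription factor induced by glucocorticoids, had peaks of fold 7.52 and 4.99 and was at 6.60, 3.77 and 6.94 scaled TPM at E95 and 0.0419 to 1.73 earlier. Its change was 2.25 ± 0.17 (adjusted p = 1.3e-07). CEBPB, a transcription factor of stress, inflammatory and adipogenic programmes, was at 100, 88.8 and 65.1 at E95 and 12.1 to 45.9 earlier, a change of 1.70 ± 0.28 (adjusted p = 0.00022). E95 lay above every earlier library in both. Of the 20 matched genes of this list, 16 were called higher against the earlier stages and 1 lower (median 0.76), beside the same shares of all genes, 21.1% and 19.7%. The counts against E70 were 13 and 1 (median 0.73), beside 6.84% and 6.73%.

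Fatty acid oxidation gave HADHA and CPT1A, with smaller changes. HADHA, the alpha subunit of the mitochondrial trifunctional protein, was at 21.5, 32.6 and 21.9 scaled TPM at E95 and 9.62 to 15.5 earlier (change 0.96 ± 0.11, adjusted p = 1.2e-05), with a peak of fold 1.87. CPT1A, the enzyme that commits fatty acids to import into mitochondria, was at 1.94, 2.20 and 1.74 at E95 and 0.461 to 1.66 earlier. Its change was 0.55 ± 0.16 (adjusted p = 0.012), and its peak had a fold of 15.3 with a p-value of 2.3e-05. The groups did not overlap in either gene, but on TPM as deposited neither was called (log2 changes of 0.31 and 0.11), and the call of CPT1A was also lost without E95 replicate 2 (0.49, adjusted p = 0.066). Of 24 tested genes of lipid and oxidative metabolism, 22 were called higher against the earlier stages and 1 lower (median 1.26), beside 21.1% and 19.7% of all genes. The counts against E70 were 15 and 1 (median 0.81), beside 6.84% and 6.73%.

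The lists of circadian clock genes (17 matched), insulin and IGF signalling (20), antigen presentation and interferon (25) and m6A writers, erasers and readers (23) held 0 members. Against the earlier stages they gave 12 higher and 0 lower of 17 tested, 7 and 2 of 20, 8 and 2 of 17, and 5 and 6 of 23, beside 21.1% higher and 19.7% lower of all genes. The counts of the m6A list are near those shares. In the same order, the counts against E70 were 9 and 0, 5 and 0, 2 and 1, and 2 and 2, beside 6.84% and 6.73%. Zinc finger genes gave 9 members of 314 (2.87%), beside 1.39% of all genes in the expression files. Among genes with an E95 peak, members were 9 of 149 zinc finger genes and 312 of 4598 genes in all, so the share was not higher there. Of the 286 zinc finger genes tested, 37 were called higher against the earlier stages and 41 lower, both below the shares of all genes.

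**Figure D4:**
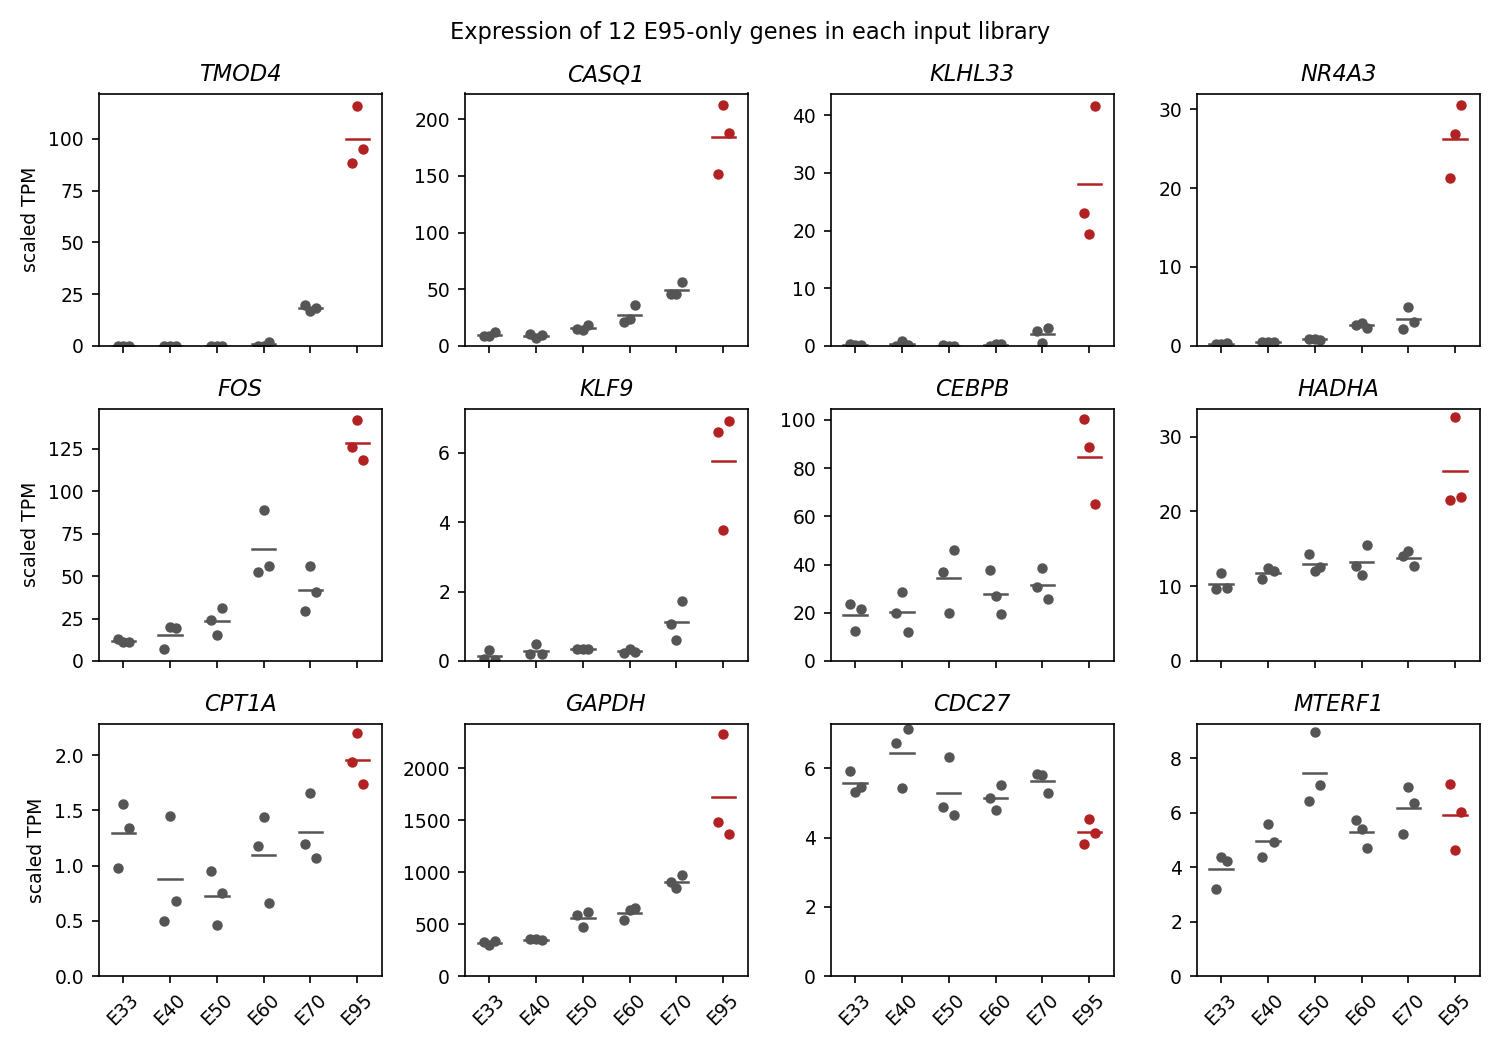
Scaled TPM (y axis, from 0, different in each panel) of 12 E95-only genes by stage (x axis). Each point is an input library (3 per stage), the bar is the stage mean, and E95 is in red. In the 10 genes from TMOD4 to GAPDH all E95 points lie above all earlier points, and in CDC27 they lie below. KLHL33 and CDC27 were named by a rule that required this. In MTERF1 (4.63 to 7.05 at E95, 3.19 to 8.97 earlier) the points overlap.

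Among the most abundant members were housekeeping and mitochondrial transcripts with very low folds. COX1, a mitochondrially encoded subunit of cytochrome c oxidase, had a peak of fold 1.70 and stood at 11794, 14216 and 11533 scaled TPM at E95 and 2710 to 8735 earlier. GAPDH, the glycolytic enzyme, had one of 1.58 and stood at 1484, 2329 and 1371 scaled TPM at E95 and 298 to 975 earlier, a change of 1.72 ± 0.13 (adjusted p = 1.7e-07). CD63, a tetraspanin of late endosomes, had a fold of 2.36, levels of 216, 282 and 180 at E95 and 102 to 163 earlier, and a change of 0.69 ± 0.11 (adjusted p = 0.00021). COX1 changed by 1.18 ± 0.15 (adjusted p = 2e-05). On TPM as deposited, none of the 3 was called, with log2 changes of 1.05 for GAPDH, 0.021 for CD63 and 0.51 for COX1. With quantile normalization COX1 was not called either, at 0.11.

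Of the 8 members with the highest folds, 4 were not called against the earlier stages, 1 fell and 3 rose. MTERF1, a mitochondrial transcription termination factor (fold 20), differed by 0.09 ± 0.12 (adjusted p = 0.58), and TMEM170B (fold 18.8), a membrane protein, by 0.04 ± 0.12 (adjusted p = 0.83). PITPNC1, a phosphatidylinositol transfer protein (fold 18.2), differed by 0.08 ± 0.08 (adjusted p = 0.48). INIP, a subunit of a complex that binds single-stranded DNA (fold 18.2), differed by -0.30 ± 0.12 (adjusted p = 0.063). It was called lower without E40 replicate 2 (-0.34), E50 replicate 3 (-0.32), both of these (-0.36) or E70 replicate 3 (-0.32), and after rescaling without the 2 most abundant genes (-0.79). PACC1, a proton-activated chloride channel (fold 19.7), fell by 0.31 (SE 0.08, adjusted p = 0.0075), a call that was lost as deposited (adjusted p = 0.074). The levels of these 5 at E95 were between 1.24 and 7.05 scaled TPM, and the E95 and earlier libraries overlapped in each of them.

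PICK1 was at 4.04, 4.63 and 3.97 scaled TPM at E95 and 2.06 to 3.32 earlier, a change of 0.48 ± 0.06 (adjusted p = 3.7e-05). On TPM as deposited its change was -0.068 and was not called, nor was that of 0.11 after rescaling without the 2 most abundant genes. SLC16A8, at the same stretch of chromosome 5, was at 8.53, 5.97 and 4.81 at E95 and 0 to 2.12 earlier, a change of 2.00 ± 0.24 (adjusted p = 1.4e-05). HSD17B1, an enzyme that makes estradiol, had 3 peaks outside RefSeq genes with folds of 14.7, 9.70 and 18.2. Its E95 values of 8.58, 9.17 and 7.98 overlapped the earlier range of 2.38 to 8.87, with a change of 0.71 ± 0.14 (adjusted p = 0.0011) that was not called as deposited (0.12).

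Of the 14 members called lower, 2 had all E95 libraries below every earlier library, and their falls were small. ZNF397, a zinc finger protein (fold 8.03), was at 6.45, 5.17 and 5.16 scaled TPM at E95 and 6.70 to 10.2 earlier, and fell by 0.49 (SE 0.11, adjusted p = 0.0021). CDC27, a subunit of the anaphase-promoting complex (fold 3.70), was at 3.82, 4.54 and 4.14 at E95 and 4.64 to 7.13 earlier, and fell by 0.35 (SE 0.08, adjusted p = 0.0039). On TPM as deposited neither was called (log2 changes of -1.07 and -0.91, adjusted p = 0.051 and 0.085).

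CCL21, a chemokine made by lymphatic endothelium and lymphoid stroma, was also among the largest rises. It was at 48.8, 54.9 and 32.6 scaled TPM at E95 and 1.08 to 9.77 earlier, a change of 3.25 ± 0.39 (adjusted p = 1.3e-05), and its peak had a fold of 4.10 and lay outside RefSeq genes. Markers of other cell types differed from the earlier stages too, with rises that in part came before E95. The summed level of 5 endothelial markers was at most 21.8 at E33, 52.0 to 59.0 at E70 and 67.6 to 78.5 at E95. All 5 were called higher against the earlier stages, and 2 against E70. For 7 macrophage markers the range was 42.8 to 55.9 at E33, 86.9 to 93.2 at E70 and 73.1 to 123 at E95. Of these, 5 were called higher against the earlier stages and 0 against E70. For 6 adipocyte markers it was 1.47 to 2.55 at E33, 18.3 to 26.2 at E70 and 36.8 to 114 at E95. Of the 4 tested, 3 were called higher against the earlier stages and 2 against E70. The sum of 7 lymphocyte markers was at most 3.18 in any library, with 5 of the 7 under 0.1 in all 3 E95 libraries, and that of 4 granulocyte markers was 0.481 to 0.770 at E95. Among 5 fibroblast markers 2 were called higher against the earlier stages and 2 lower, and among 5 tested neural and Schwann markers 1 and 2. The 6 erythroid markers summed to 455 to 852 at E95 and to 162 to 1712 earlier. The part of these cells in the members' changes was not tested. In bulk muscle a change in the number of cells of a type and a change in RNA per cell cannot be told apart.

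Most member genes had a peak in kidney cells. Of the 312 genes, 227 (72.8%, Wilson 95% interval 67.6 to 77.4) had a peak in at least 1 of the PK15 lists, against 86.3% (85.2 to 87.3) of the other 4286 genes with an E95 peak and 40.2% (39.1 to 41.4) of 7222 genes that had no muscle peak and averaged 1 TPM or more. The lists differed: 212 members (67.9%) had a peak in the polyA list and 127 (40.7%) in the list of rRNA-depleted RNA, the preparation used for muscle, whereas the other E95 genes reached 82.4% and 75.6%. Both lists held 112 members (35.9%), against 71.7% of the other genes. The polyA list is the longer, with 16492 peaks against 9659. Genes with peaks at E70 and E95 only lay near the members, at 75.3% (67.9 to 81.5) for either list.

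At the site itself, 207 of the 342 member peaks (60.5%, 55.3 to 65.6) overlapped a PK15 peak on the same strand by at least 1 base, against 77.5% of the other E95 peaks. The polyA list covered 183 and the rRNA-depleted list 121. Among the members called higher at E95, 108 of 150 (72.0%) had a PK15 peak, and among tested members that were not called, 95 of 123 (77.2%) did. Expression in PK15 was not analysed here.

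**Figure D5:**
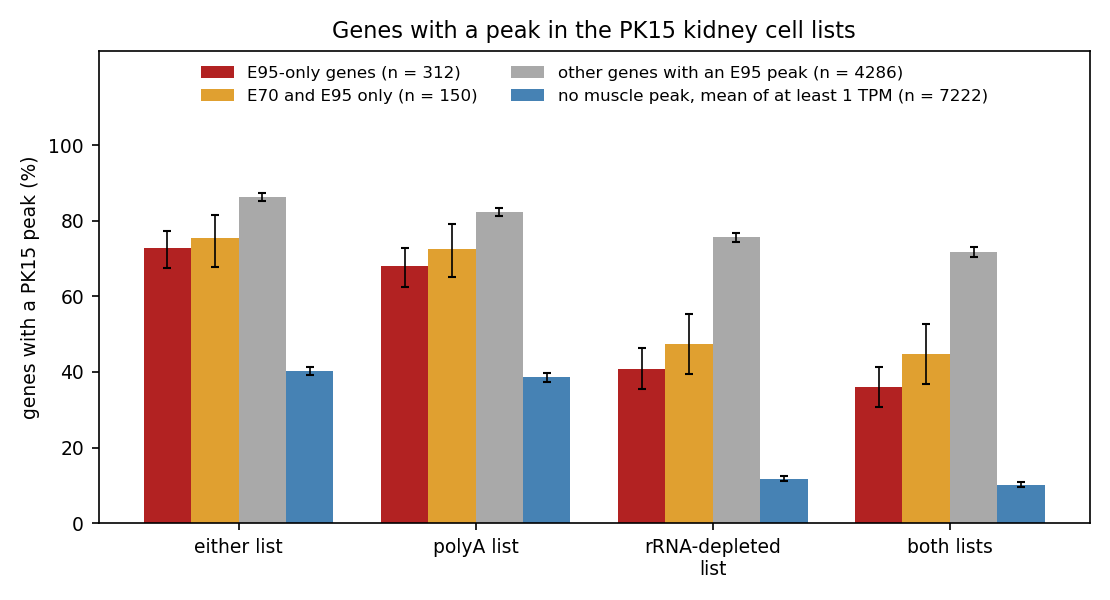
Bars are the share of genes (in %) with a peak in the PK15 lists, with Wilson 95% intervals, for E95-only genes (red), genes with peaks at E70 and E95 only (yellow), other genes with an E95 peak (grey) and genes with no muscle peak that averaged 1 TPM or more (blue). For the rRNA-depleted list the red bar is at 40.7% and the grey bar at 75.6%.

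The members with a peak in both PK15 lists and the highest E95 folds were NACC2, NHSL3, LOXL3, SLC16A13 and TICAM1. TICAM1, an adaptor of toll-like receptor signalling, had folds of 14.7 at E95 and of 9.42 (polyA) and 6.73 (rRNA-depleted) at the same site in PK15, while its muscle expression differed by -0.09 ± 0.17 (adjusted p = 0.69). Rescaled without the 2 most abundant genes, that difference was -0.52 and was called (adjusted p = 0.034). SLC16A13, a monocarboxylate transporter, had 14.7, 2.89 and 4.57, with a change of 0.08 ± 0.22 (adjusted p = 0.80). NACC2, a transcriptional repressor, had 17.6, 14.7 and 6.52, and NHSL3 had 16.2, 2.67 and 3.94. LOXL3, a lysyl oxidase that cross-links matrix proteins, had 15.3, 7.04 and 3.02. NACC2 rose by 0.69 ± 0.10 (adjusted p = 9.6e-05), NHSL3 by 1.26 ± 0.26 (adjusted p = 0.0016) and LOXL3 by 0.63 ± 0.20 (adjusted p = 0.019), and none of these 3 was called on TPM as deposited. The E95 libraries overlapped the earlier ones in NHSL3 and LOXL3, and the call of LOXL3 was lost without E95 replicate 1 (adjusted p = 0.092) or replicate 2 (0.068). Folds from different lists are not a measure of change. CASQ1, KLHL33, DUSP26, NR4A3, CCL21, PPP1R27, ZNF397, PITPNC1 and SLC16A8 had no peak in either PK15 list.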

How the data were processed

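Per the submitters' processing notes, reads were handled with Trimmomatic and HISAT2 on Sscrofa11.1. The authors deposited 1 TPM file per muscle input library, as its header names it, and 1 peak list per stage and PK15 preparation. Per the file headers, each list gives a fold enrichment, which is a ratio, and a p-value. The quantifier, peak caller, its threshold, strandedness and pooling are not given in the sources used here. The members, gene lists and scaling were chosen with earlier results of these data known.

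TPM divided by median-ratio size factors was fitted as log2(scaled TPM + 1) with limma 3.58.1 (R 4.3.3), with 6 stage means over 18 libraries, a trend, and two-sided Benjamini-Hochberg adjusted p-values over 13334 genes of 22427. The script was checked on simulated data. A fold change on this scale understates that of low genes. Of E95 peak junctions, 89.6% fell at RefSeq introns of Sscrofa11.1, so its annotation placed the peaks and its sequence was read with pysam 0.24.0.

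Named genes were the 8 members with the highest fold, up to 6 largest rises and falls without overlap, the 4 most abundant, the 5 highest folds with peaks in both PK15 lists, and all members of the gene lists (zinc fingers only counted), each with a symbol. Replicate numbers did not pair libraries (correlations of same-numbered deviations from -0.12 to 0.10). Alternatives were other scalings, pseudocounts and filters, libraries left out, a replicate block, and other member rules.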

Additional observations from a re-analysis of the deposited data

How the results depend on the processing

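Against the 5 earlier stages, 150 members were called higher and 14 lower. With a mean of at least 5 TPM, 89 of 159 were called higher. As deposited the counts were 31 and 4 (1.79% and 11.5% of all genes). Rescaled without the 2 most abundant genes they were 73 and 70 (7.16% and 50.2%). Members chosen by peak overlap gave 335 and 62 of 725, and members with a fold at or above the E95 median gave 61 of 151. Both came from the main fit, where 21.1% of all genes were called higher and 19.7% lower. No share over all genes was counted for the 5 TPM filter, the replicate block or the fits with libraries left out. Those counts therefore have no background here. Leaving out each library in turn gave 127 to 152 higher and 8 to 19 lower. Lower calls dropped to 8 without E95 replicate 1 and 9 without E95 replicate 2.

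Against E70 (74 higher, 8 lower), the counts were 3 and 0 as deposited (0.075% and 0.21% of all genes). On that scale 17 and 5 had an unadjusted limma p under 0.05, for which no share of all genes was counted. The counts were 42 and 18 rescaled (2.2% and 16.1%) and 44 and 5 of 159 at 5 TPM. From the main fit (6.84% and 6.73% of all genes) they were 148 and 25 of 725 by overlap, and 25 and 5 of 151 at high fold. With only the libraries of E70 and E95, 1 was called lower. Leaving out each library gave 58 to 75 higher and 3 to 9 lower: 5 without E33 replicate 3, 3 without E70 replicate 1, E95 replicate 1 or E95 replicate 2, and 4 without E70 replicate 2 or 3. Where 1 sample of a stage was left out, the others shared the pooled spread.

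The replicate block gave 148 higher and 14 lower against the earlier stages and 72 and 5 against E70. It changed no call of a named gene. An alternative without members whose site is shared with another gene was chosen after seeing the data. Its counts were 139 and 14 of 266, and 68 and 8 against E70. They came from the main fit, with the background shares of that fit.

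The member count of 312 became 172 with only the E95 peaks above that list's median fold, 754 genes with an E95 peak that overlaps no earlier peak, and 928 with under 50% of its bases in one. The PK15 share of 72.8% became 40.7% with the rRNA-depleted list and 47.8% above the median fold.

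Signs that turned belonged to uncalled changes except that of PICK1. As deposited these were -0.068 for PICK1, -0.47 for MTERF1, -0.35 for TMEM170B, -0.39 for PITPNC1 and -0.40 for SLC16A13. Rescaled without the 2 most abundant genes they were -0.36 for MTERF1, -0.31 for TMEM170B, -0.32 for PITPNC1 and -0.32 for SLC16A13. Leaving out each library in turn gave -0.029 (without E95 replicate 1) to 0.23 for MTERF1. Without E95 replicate 3 the sign also turned in TMEM170B (range -0.021 to 0.085), PITPNC1 (-0.046 to 0.17), SLC16A13 (-0.057 to 0.17) and TICAM1 (-0.25 to 0.076). As deposited PICK1 and 12 other named genes lost their call. INIP gained one without both libraries that stand apart (-0.36), and rescaled without the 2 most abundant genes INIP (-0.79) and TICAM1 (-0.52) gained one. The cause of these shifts was not tested.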

Other observations

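Peaks of genes listed at a single stage were found at the other stages too: 470 peaks of 414 genes at E33, 25 of 24 at E40, 98 of 95 at E50, 121 of 114 at E60 and 258 of 244 at E70. The muscle lists held 4928 (E40) to 8685 (E33) peaks, and with 1 list per stage it cannot be shown how often such a peak would recur in the same tissue.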
